A study of Mus musculus with 42 samples.

Results

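The proteasome subunit genes of the mouse cerebellum were taken as the protein-coding genes whose symbol is Psma, Psmb, Psmc or Psmd followed by a number. The symbols matched 40 of the 35275 genes listed in the counts. The rule reads the symbol and the gene type and no measured value. Of the 40 genes, 31 encode constitutive subunits, 3 encode the immunoproteasome subunits Psmb8, Psmb9 and Psmb10, and 2 encode the tissue-restricted core subunits Psma8 and Psmb11. The other 4 do not encode subunits of the finished particle. Psmd5, Psmd9 and Psmd10 are assembly chaperones of the regulatory particle, and Psmc3ip, which the symbol pattern also takes, encodes a protein of meiotic recombination.

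The proteasome is the protease that degrades proteins marked with ubiquitin. Its barrel-shaped core is closed at both ends by rings of alpha subunits, and the inner rings of beta subunits carry the proteolytic sites on Psmb5, Psmb6 and Psmb7. The 19S regulatory particle on the end of the core binds the substrate through its non-ATPase subunits and unfolds it with a ring of ATPases. In immune cells and after interferon, Psmb8, Psmb9 and Psmb10 take the places of Psmb5, Psmb6 and Psmb7 and favour peptides for antigen presentation. In neurons the proteasome is known for its part in turnover of synaptic proteins. When its activity is short, the transcription factor Nfe2l1 is known to raise the subunit genes together.

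RNA-seq of bulk cerebellum was available for 30 libraries in 6 groups of 5, all from male C57BL/6 mice fed a standard diet. From 3 to 6 months of age the mice had food at all times (AL), a fast of 16 h in each day (IF16), or fasts of 24 h on alternate days (EOD). In 3 further groups the same regimens were followed by 2 months of free feeding, with collection at 8 months. These are called refed AL, refed IF16 and refed EOD here, and the labels and plots mark them with an R after the name. The refed AL mice never fasted. The labels do not say whether each library is a separate mouse, so p-values measure the spread between these libraries, and 12 chromatin samples were not analysed here. The comparisons ask whether either fasting regimen altered the level of these transcripts, whether the regimens differed, and whether a difference was present after refeeding. In bulk tissue, fewer cells of a type and less RNA per cell cannot be told apart.

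A pair of sequence motifs of factors known to control subunit genes was sought upstream of them. The stretches around all 5 matches of the first motif are shown. The first motif is the core of the antioxidant response element, TGACNNNGC, which Nfe2l1 and related factors bind. It was sought on both strands, together with the letters CCAAT of the box bound by NF-Y, in the RefSeq windows of build GRCm38.p6 of 300 bases around each start site. Of the 40 genes, 33 had a window there. The antioxidant core stood in 5 of 35 windows (14.3%), against 12.4% of all 32817 windows of the same length. CCAAT stood in 14 of 35 windows (40%), against 37.4% of all. The shares near those of all windows describe these letters alone, and a match is not evidence of a bound site. The 5 stretches are written 5′ to 3′ on the strand of the gene, with the 9 matched bases in capitals.
Psmb5, 47 bases upstream, at chr14:54618024-54618052, minus strand: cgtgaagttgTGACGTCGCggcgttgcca
Psmb6, 9 bases upstream, at chr11:70525338-70525356, plus strand: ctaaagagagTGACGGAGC
Psmd9, 31 bases upstream, at chr5:123228149-123228177, plus strand: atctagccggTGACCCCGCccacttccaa
Psmc6, 227 bases upstream, at chr14:45329587-45329615, plus strand: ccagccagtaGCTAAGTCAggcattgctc
Psmd12, 247 bases upstream, at chr11:107479278-107479299, plus strand: tctGCTGTGTCAcatttgcccc
In Psmc6 and Psmd12 the motif reads on the opposite strand, so the capitals show its reverse complement. The matches of Psmb6, Psmd9 and Psmb5 lie closest to the start site.

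Total counts per library ran from 26799825 to 36167435. Markers of cerebellar granule cells (7 of 7) and Purkinje cells (7 of 7) were detected, with summed levels of 4560 to 5920 and 5930 to 8650 CPM (counts scaled to the library's size). Summed choroid plexus markers ran from 33.2 to 4300 CPM, so libraries differed widely in adjoining choroid plexus. Libraries also differed in how their reads divided between short and long genes. This was measured as a length gradient, the slope of a library's log2 CPM on log2 gene length after each gene was centred on its mean over the table, so that a negative value means relatively more reads from short genes. AL replicate 4 (-0.158), IF16 replicate 1 (-0.114) and AL replicate 5 (-0.106) stood lowest and EOD replicate 4 (0.139) highest at the end of the regimens, while all 15 libraries after refeeding lay between -0.0261 and 0.0416.

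The 31 constitutive subunit genes were all expressed, and their transcripts were spread over less than a factor of 10. Levels between genes are given in CPM per kilobase of gene length, as group means. The length is the one listed with the counts, and it was not checked against the transcripts present here. In AL the median subunit stood at 61.2 CPM per kilobase, from 22 for Psmd11, a scaffold subunit of the 19S lid, to 182 for Psmc5, an ATPase, an 8.26-fold range. Of the 31, 26 lay within 2-fold of that median. In refed AL the median was 56.1, the range 24.4 to 155 (6.36-fold), and 27 of 31 lay within 2-fold. By this measure Psmd11 was the lowest and Psmc5 the highest of the 31 in all 6 groups. In CPM alone Psmd11, with a listed length of 2975 bases, stood at 65.5 in AL, above Psmb2 (859 bases) at 49.1.

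**Figure D1:**
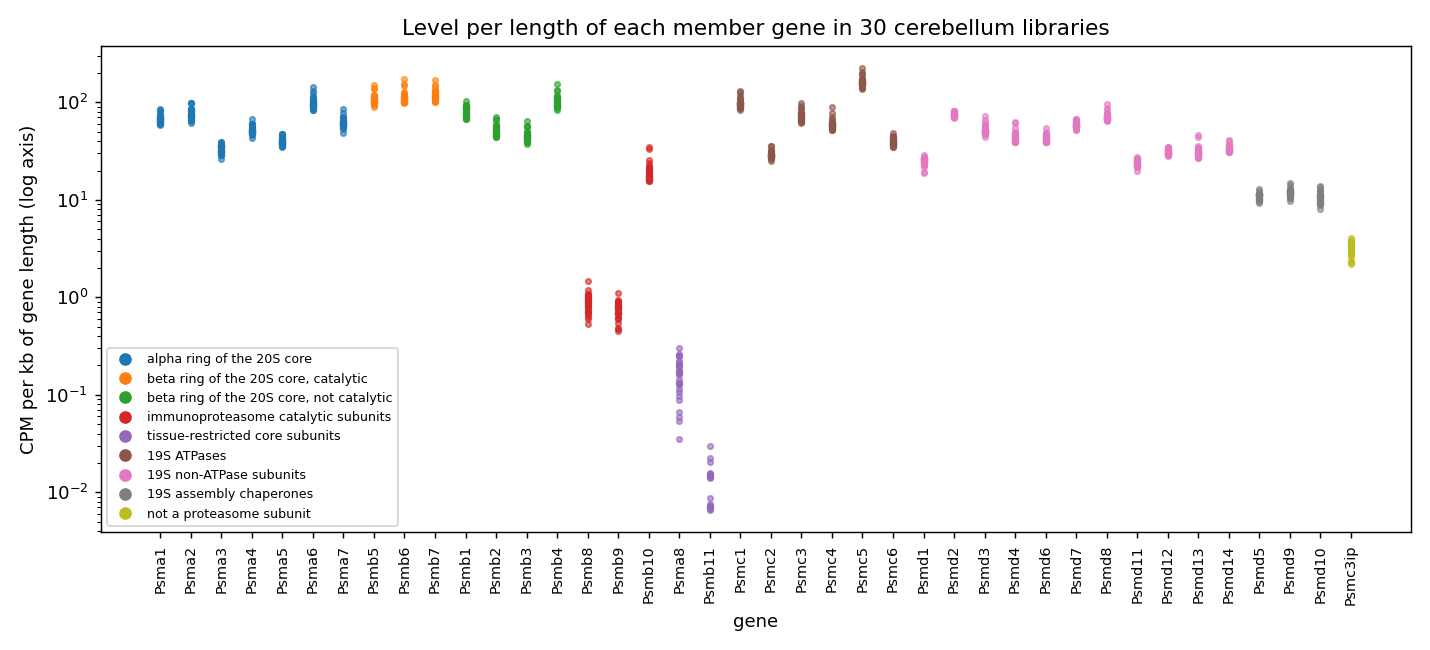
Levels of the 40 genes by library, in CPM per kilobase of gene length on a log axis, with 1 point per library and genes grouped and coloured by role (values of 0, which occur in Psmb11, cannot be drawn on this axis). The constitutive subunits occupy one band, with Psmb8, Psmb9, Psma8 and Psmb11 far under it and the assembly chaperones and Psmc3ip between.

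Within the core, the 3 catalytic beta subunits were among the most abundant transcripts. In AL, Psmb5 (chymotrypsin-like site) stood at 121 CPM per kilobase, Psmb6 (caspase-like site) at 132 and Psmb7 (trypsin-like site) at 133, so they lay within 1 close band. The same genes stood at 103, 109 and 108 in refed AL. The 4 other beta subunits ran from 50.8 (Psmb3) to 119 (Psmb4) in AL, and the 7 alpha subunits from 36.2 (Psma3) to 116 (Psma6), with a median of 66.8 (Psma7). Psma3 has a listed length of 2846 bases. In CPM alone it stood at 103 in AL, under Psma6 at 121 and above Psma5 at 53.3. In the assembled core each of these alpha and beta subunits is present in equal number, and protein was not measured here.

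In the regulatory particle the 6 ATPases ran from 31.3 (Psmc2) to 182 (Psmc5) CPM per kilobase in AL, and the 11 non-ATPase subunits from 22 (Psmd11) to 76.8 (Psmd8). In CPM alone Psmc2 (3466 bases) stood at 109 in AL, above Psmc6 (1564 bases) at 63. The following values are per kilobase. The ubiquitin receptor Psmd4 stood at 49.9 and the deubiquitinase Psmd14, which removes the ubiquitin chain from the substrate, at 35.8. The largest scaffold subunits differed: Psmd2 stood at 76.5 and Psmd1 at 22.4. The 3 assembly chaperones lay lower than all constitutive subunits, with Psmd5 at 10.3, Psmd10 at 11.8 and Psmd9 at 13 CPM per kilobase. Chaperones leave the particle once it is built.

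The 40 genes together took 0.345% ± 0.0358 (SD, n = 5) of all counts in AL, 0.341% ± 0.026 in IF16 and 0.321% ± 0.0251 in EOD. After refeeding the share was 0.304% ± 0.00803 in refed AL, 0.297% ± 0.00756 in refed IF16 and 0.309% ± 0.0108 in refed EOD. The 2 sets of 15 libraries come from separate tables, so the difference between them has no test here. The spread within a group was smaller after refeeding: the catalytic subunit Psmb6 had an SD of 30 CPM around 127 in AL and 4.58 around 105 in refed AL. Its 5 AL libraries held 97.3, 109, 113, 169 and 148 CPM, and its 5 refed AL libraries 98.7, 103, 105, 111 and 107 CPM. AL replicates 4 and 5 made the spread, and the other 3 AL libraries lay close to each other.

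Most of the subunit genes went up and down together from library to library, and libraries rich in reads from short genes were the ones with high subunit transcripts. The summary used is the median, over the 39 genes that passed the low-count filter (all but Psmb11), of each gene's log2 CPM minus its mean over the 15 libraries. It was 0.279 in AL replicate 4, 0.226 in IF16 replicate 1 and 0.169 in AL replicate 5, the 3 highest of the 15. It was lowest, at -0.238, in EOD replicate 4. These are the same 3 libraries with the lowest length gradient and the 1 with the highest. The genes are short: their median length was 1540 bases, against 2988 for all genes tested, and 35 of 39 were shorter than that median gene.

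**Figure D2:**
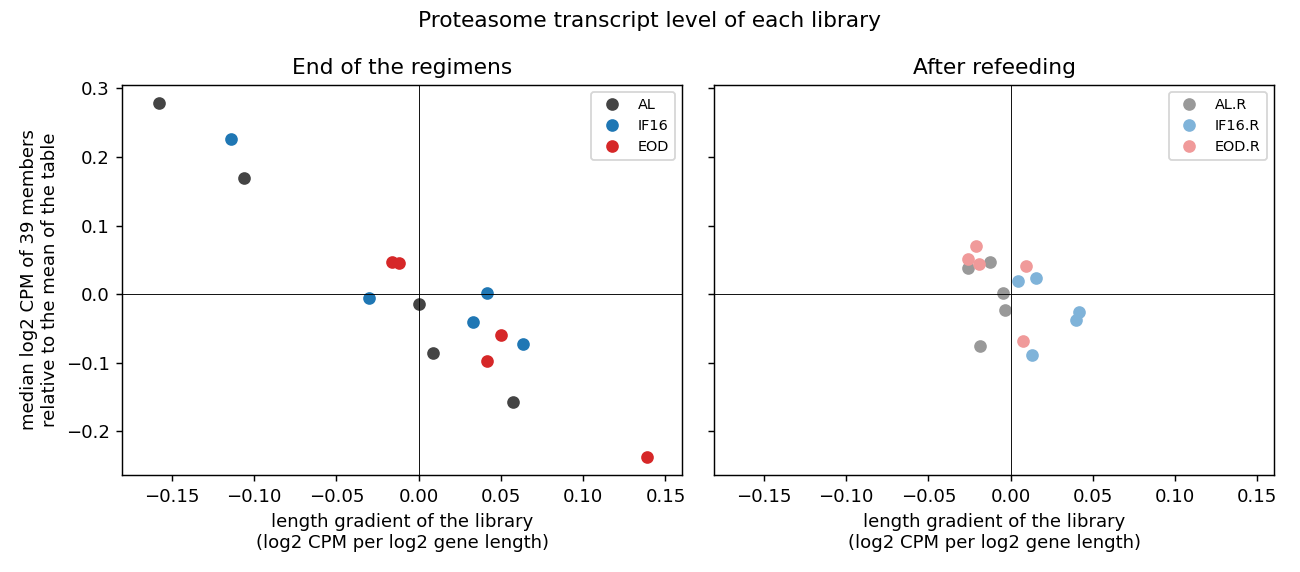
Median log2 difference of the 39 tested genes from their table mean (vertical axis) against the length gradient of the same library (horizontal axis, log2 CPM per log2 length), 1 point per library, with the regimens and the refeeding table in separate panels. At the end of the regimens AL replicate 4 (-0.158, 0.279) and EOD replicate 4 (0.139, -0.238) mark the ends of the band, and the refeeding libraries lie within a much narrower range on both axes.

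Gene by gene, 36 of 39 had a negative slope on the gradient within the groups of the 15 regimen libraries, where 53.2% of all 16577 tested genes did. The median slope was -0.205 log2 units for each 0.1 of gradient. The steepest were Psmb8 (-0.397), Psmb10 (-0.355) and Psmb6 (-0.302). All 29 genes shorter than 2 kilobases had a negative slope, and 7 of the 10 longer ones did. The 3 exceptions were Psmd1 (0.156), Psmd11 (0.099) and the chaperone Psmd5 (0.084). Removing each library's fitted gradient brought the within-group SD of the median difference from 0.142 to 0.0366 log2 units. After refeeding 33 of 39 had a negative slope, and the SD was 0.0504 before and 0.0486 after removal. The gradient was computed from the same counts as the genes and from gene length, so short genes tend to a negative slope by its definition. The 53.2% covers genes of all lengths, not short genes alone. What sets the gradient was not tested.

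**Figure D3:**
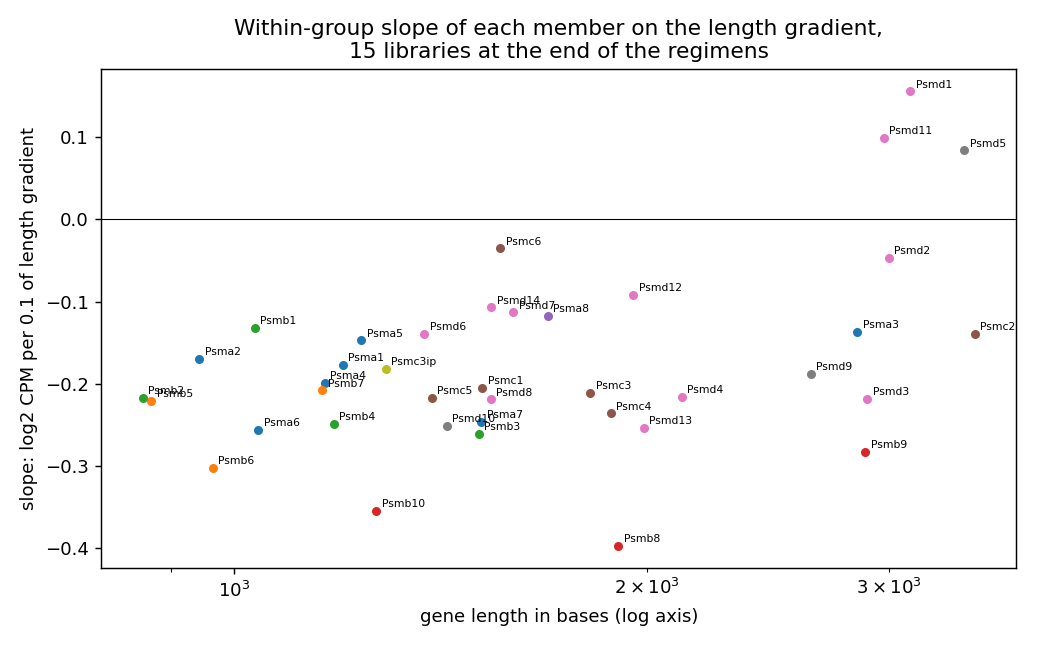
Within-group slope of each of the 39 tested genes on the length gradient (log2 units per 0.1 of gradient, vertical axis) against its gene length (horizontal log axis, bases), over the 15 regimen libraries. The 29 genes under 2 kilobases all lie below 0, and the 3 genes above 0 are Psmd1, Psmd11 and Psmd5.

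A daily fast of 16 h left no detectable difference in any subunit gene at this depth and spread. Against AL, IF16 had 0 of 39 genes past an adjusted p of 0.05 in edgeR's quasi-likelihood test with Benjamini-Hochberg adjustment over all genes, where 0.0483% of all genes passed. At an unadjusted p under 0.05 it had 1 of 39 (2.56%), against 9.92% of all genes. Of the 39, 13 were higher and 26 lower (51.3% of all genes were lower and 48.7% higher), with a median log2 fold change of -0.0167 against -0.00616 over all genes. The 95% intervals of the 31 constitutive genes reached from -0.43 to 0.33 on the log2 scale, or 0.742 to 1.26-fold, so differences larger than these lay outside the intervals. With the length gradient as a covariate the median turned to 0.0499, with 31 genes higher and 8 lower. In that fit 7 of 39 had an unadjusted p under 0.05, where 2355 of all 16577 genes did. The median was 0.00333 with the choroid plexus markers as a covariate and 0.0312 without AL replicate 4, so its sign turned with a covariate or a single library.

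The smallest p in that comparison was at Psmd11. Its AL libraries held 70.1, 65.6, 64.5, 59.1 and 67.9 CPM and its IF16 libraries 64.6, 66.9, 80.9, 72.2 and 77.3 CPM. The groups overlapped, with IF16 replicates 1 and 2 inside the AL range, and the log2 fold change was 0.15 ± 0.0686 (SE; edgeR adjusted p = 0.504). The catalytic subunit Psmb5 held 90, 92.6, 93.3, 130 and 121 CPM in AL and 119, 103, 88.7, 101 and 98.5 CPM in IF16. Its log2 fold change was -0.05, with a 95% interval of -0.27 to 0.18. Psmb7 held 136, 142, 149, 175 and 170 CPM in AL and 197, 157, 150, 146 and 147 CPM in IF16, with a log2 fold change of 0.05 (-0.16 to 0.26). IF16 replicate 1 was the highest of its group for both genes.

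Alternate-day fasting gave a lower median, again with no gene past the test. EOD against AL had 0 of 39 genes called in edgeR, where 0.0664% of all genes were, and 1 of 39 at an unadjusted p under 0.05, against 14.4%. Of the 39 genes, 34 were lower and 5 higher, where 53.3% of all genes were lower and 46.7% higher, and the median log2 fold change was -0.128 against -0.0178 over all genes. All 14 constitutive core subunits were on the lower side, with log2 fold changes of -0.2 to -0.07. The 95% intervals of the constitutive genes ran from -0.49 to 0.37, or 0.712 to 1.29-fold. The mean length gradient was 0.0405 ± 0.0625 in EOD and -0.0394 ± 0.0889 in AL (SD, n = 5 each), a difference with an exact two-sided permutation p of 0.175. With the gradient as a covariate in the edgeR fit the median turned to 0.0466, with 33 genes higher and 6 lower. It was -0.0431 without AL replicate 4, and 0.0171 without AL replicates 4 and 5 and IF16 replicate 1, an alternative chosen after seeing the data. The count at an unadjusted p under 0.05 was 8 of 39 without AL replicate 1, where 4181 of all 16650 genes passed. It was 7 of 39 with the choroid plexus covariate, where 3771 of all 16577 genes passed. The direction of the EOD difference turned with the gradient covariate and without the 3 libraries together. It did not turn when 1 library was left out (-0.17 to -0.0431) or with the choroid plexus covariate (-0.155). The part of the gradient in it was not tested further.

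Psmd9, an assembly chaperone, had the smallest p. Its AL libraries held 28.9, 32.7, 33.1, 39.2 and 37.2 CPM and its EOD libraries 27.8, 27.9, 31.1, 27.3 and 33.2 CPM. The groups overlapped, and the log2 fold change was -0.21 ± 0.0956 (SE; edgeR adjusted p = 0.337). Psmb6 held 110, 104, 118, 96.3 and 124 CPM in EOD, within the AL range of 97.3 to 169 CPM in 4 of 5 libraries, with a log2 fold change of -0.20 (95% interval -0.49 to 0.08, adjusted p = 0.429). Psmd1, the long scaffold subunit of the 19S base, stood on the other side. It held 79.2, 76.6, 73.5, 58.7 and 60.4 CPM in AL and 70.7, 84.5, 78.8, 81.4 and 78.8 CPM in EOD, a log2 fold change of 0.18 (adjusted p = 0.362 in edgeR). AL replicates 4 and 5, which were high for Psmb6, were the lowest for Psmd1.

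Between the fasting regimens, EOD against IF16, 0 of 39 genes were called and 0% of all genes were, with 0 of 39 at an unadjusted p under 0.05 (3.62% of all genes). Lower values were found in 36 of 39 and higher in 3 (50.2% and 49.8% of all genes), with a median of -0.0813. The smallest p was at Psmb7, which held 136, 140, 154, 119 and 151 CPM in EOD, against 146 to 197 CPM in IF16. The log2 fold change was -0.19 ± 0.0988 (SE; edgeR adjusted p = 0.977). IF16 replicate 1, at 197 CPM, stood apart from the other 4 IF16 libraries at 146 to 157 CPM, and without it the median over the 39 genes was -0.0303. With the gradient as a covariate the median was -0.0219, with 23 genes lower and 16 higher, and with the choroid plexus covariate it was -0.145. The constitutive intervals ran from -0.43 to 0.28.

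In the 3 comparisons at the end of the regimens 0 of 39 genes had groups of libraries that did not overlap, where 1.55% of all genes did for IF16, 2.9% for EOD and 0.688% for EOD against IF16.

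**Figure D4:**
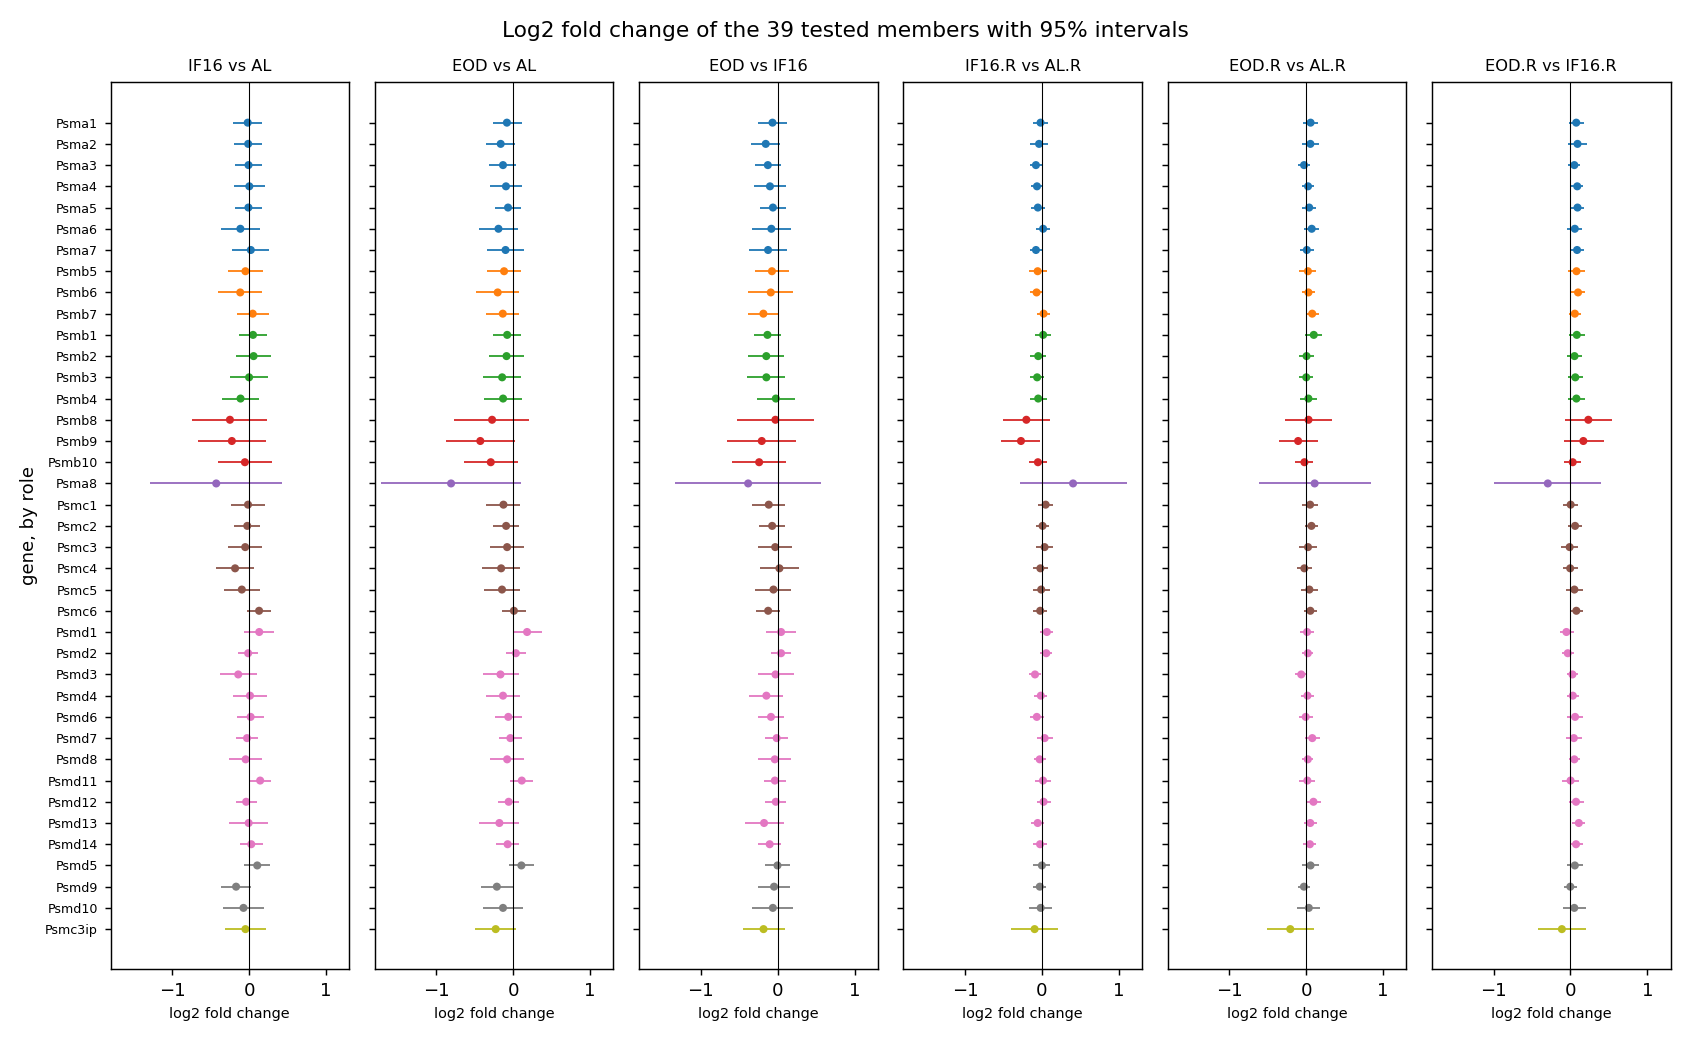
Log2 fold change (horizontal axis) of each of the 39 tested genes in the 6 pairwise comparisons, with 95% intervals from edgeR and colours by role. The intervals of the constitutive subunits cross or touch 0 nearly everywhere and are narrower in the 3 comparisons after refeeding, where they lie within -0.17 to 0.21, than at the end of the regimens.

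After refeeding the intervals were narrow. Refed IF16 against refed AL had 0 of 39 genes called, where 0.17% of all genes were, and 2 of 39 (5.13%) at an unadjusted p under 0.05, against 9.58%. Of the 39, 26 were lower and 13 higher (51.2% and 48.8% of all genes), with a median log2 fold change of -0.024 against -0.00233. The constitutive intervals ran from -0.17 to 0.15, or 0.889 to 1.11-fold. The length gradient did not overlap between these groups, at 0.0229 ± 0.0167 in refed IF16 and -0.0129 ± 0.00941 in refed AL (SD, n = 5; exact two-sided permutation p = 0.00794, the smallest the design allows; 0.0476 adjusted over 6 comparisons). With the gradient as a covariate the median was 0.0309, with 28 genes higher and 11 lower.

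Psmd3, a lid subunit of the regulatory particle, had the smallest p there. It held 148, 148, 155, 162 and 151 CPM in refed AL and 144, 152, 140, 136 and 147 CPM in refed IF16. The ranges overlapped at refed IF16 replicate 2 alone, and the log2 fold change was -0.09 ± 0.037 (SE; edgeR adjusted p = 0.453). Psmb5 held 82.8, 88.1, 89.4, 96 and 91.7 CPM in refed AL and 78.6, 90.1, 84.9, 91.2 and 86.6 CPM in refed IF16, with a log2 fold change of -0.06 (-0.17 to 0.06). Psmb6 differed by -0.07 (-0.16 to 0.02) and Psmb7 by 0.02 (-0.06 to 0.1). In this comparison and in refed EOD against refed AL, 0 of 39 genes had groups that did not overlap, where 2.18% and 1.87% of all genes did.

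Refed EOD against refed AL had 0 of 39 genes called (0.0426% of all genes) and 1 of 39 at an unadjusted p under 0.05 (8.5% of all genes). Of the 39, 31 were higher and 8 lower (50.3% and 49.7% of all genes), with a median of 0.0286 against 0.000667, and constitutive intervals from -0.14 to 0.2, or 0.908 to 1.15-fold. The smallest p was at Psmd12, a lid subunit. It held 56.6, 56.9, 59.5, 59.7 and 58.9 CPM in refed AL and 57.4, 58.5, 65.3, 62.8 and 67.3 CPM in refed EOD. Refed EOD replicates 3, 4 and 5 lay above all refed AL libraries and replicates 1 and 2 inside their range, with a log2 fold change of 0.09 ± 0.0445 (SE; edgeR adjusted p = 0.585). The mean length gradient was -0.00993 ± 0.017 in refed EOD and -0.0129 ± 0.00941 in refed AL (SD, n = 5; exact two-sided permutation p = 0.738). With the gradient as a covariate the median was 0.0299, with 32 genes higher and 7 lower. In that fit 3 of 39 had an unadjusted p under 0.05, where 1520 of all 16444 genes did.

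Refed EOD against refed IF16 had 0 of 39 genes called (0.0182% of all genes) and 4 of 39 (10.3%) at an unadjusted p under 0.05, against 9.75% of all genes. That count was 13 of 39 without refed EOD replicate 1, where 2021 of all 16543 genes passed. Of the 39, 32 were higher and 7 lower (52.1% and 47.9% of all genes), with a median of 0.0563 and constitutive intervals from -0.14 to 0.21. The 7 alpha subunits were each on the higher side, at 0.05 to 0.09. Psmd13, a lid subunit, had the smallest p, and it was the 1 of the 39 genes whose libraries did not overlap (1.26% of all genes did not). It held 55.8, 57.1, 54.8, 54.8 and 56.5 CPM in refed IF16 and 58.3, 60.9, 63.1, 58.9 and 59.6 CPM in refed EOD, a log2 fold change of 0.11 ± 0.0397 (SE; edgeR adjusted p = 0.356). Psmd13 overlaps the gene Sirt3 on the opposite strand and the listed gene Gm15542 on the same strand. Psmd12 and Psmd1 also overlap a listed gene on their own strand (Gm11722 and Gm21972). The strand setting of the counting is not given in the sources used here, and the effect of these overlaps was not tested. The gradient differed in the same pair of groups, at -0.00993 ± 0.017 in refed EOD and 0.0229 ± 0.0167 in refed IF16 (exact two-sided permutation p = 0.0238, 0.0714 adjusted over 6 comparisons). With the gradient as a covariate the median was 0.0131, with 22 genes higher and 17 lower. In that fit 0 of 39 had an unadjusted p under 0.05, where 772 of all 16444 genes did.

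Whether a regimen's difference from its controls changed with refeeding was tested as an interaction over all 30 libraries. For IF16, 0 of 39 genes were called (0.0474% of all 16877 genes), with 0 at an unadjusted p under 0.05 (7.21% of all genes) and a median of -0.00723. Of the 39, 19 interactions were positive and 20 negative (49% and 51% of all genes). The smallest p was at Psmc6, an ATPase, whose interaction was -0.15 ± 0.0836 (SE; edgeR adjusted p = 0.735). For EOD, 0 of 39 were called (0.0119% of all genes), with 1 at an unadjusted p under 0.05 (10.3% of all genes) and a median of 0.138. Psma2, an alpha subunit, was that gene, with an interaction of 0.21 ± 0.104 (SE; edgeR adjusted p = 0.481). It was the smallest p, and 35 of the 39 interactions with EOD were positive and 4 negative, where 51% and 49% of all genes were. With the length gradient as a covariate the EOD median was -0.00706, with 18 genes positive and 21 negative.

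In all 8 tests DESeq2, run as an alternative, also called 0 of the 39 genes. Over all genes it called between 1 of 16577 (EOD against IF16) and 133 of 16577 (EOD against AL) in the 6 comparisons. In the interactions it called 29 (IF16) and 14 (EOD) of 16877.

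The immunoproteasome genes were low in this tissue, with Psmb8 and Psmb9 far under their constitutive partners and Psmb10 less so. In AL, Psmb8 stood at 0.994, Psmb9 at 0.831 and Psmb10 at 24.2 CPM per kilobase. Of the summed level of a subunit pair per kilobase, Psmb8 took 0.808% ± 0.19 (SD, n = 5) of Psmb8 plus Psmb5 in AL, Psmb9 took 0.642% ± 0.132 of Psmb9 plus Psmb6, and Psmb10 took 15.2% ± 2.02 of Psmb10 plus Psmb7. Over the 6 groups the mean share of Psmb8 ran from 0.698% to 0.893%, that of Psmb9 from 0.536% to 0.759%, and that of Psmb10 from 12.9% to 15.2%. Counts behind these values were 35 to 87 per library for Psmb8, 41 to 101 for Psmb9 and 598 to 1459 for Psmb10. The shares rest on the listed lengths, which differ within a pair. They are 1907 and 871 bases for Psmb8 and Psmb5, 2884 and 966 for Psmb9 and Psmb6, and 1270 and 1160 for Psmb10 and Psmb7. In CPM alone the AL means of these pairs were 1.9 and 105, 2.4 and 127, and 30.8 and 154. Psmb9 lies next to and overlaps the transporter gene Tap1 on the opposite strand. Psmb8 (Gm20496), Psmb10 (Gm16156) and Psmb7 (Nek6 and Gm13586) also overlap listed genes on the opposite strand, and Psmb5 and Psmb6 do not. The effect of these overlaps on the shares was not tested.

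**Figure D5:**
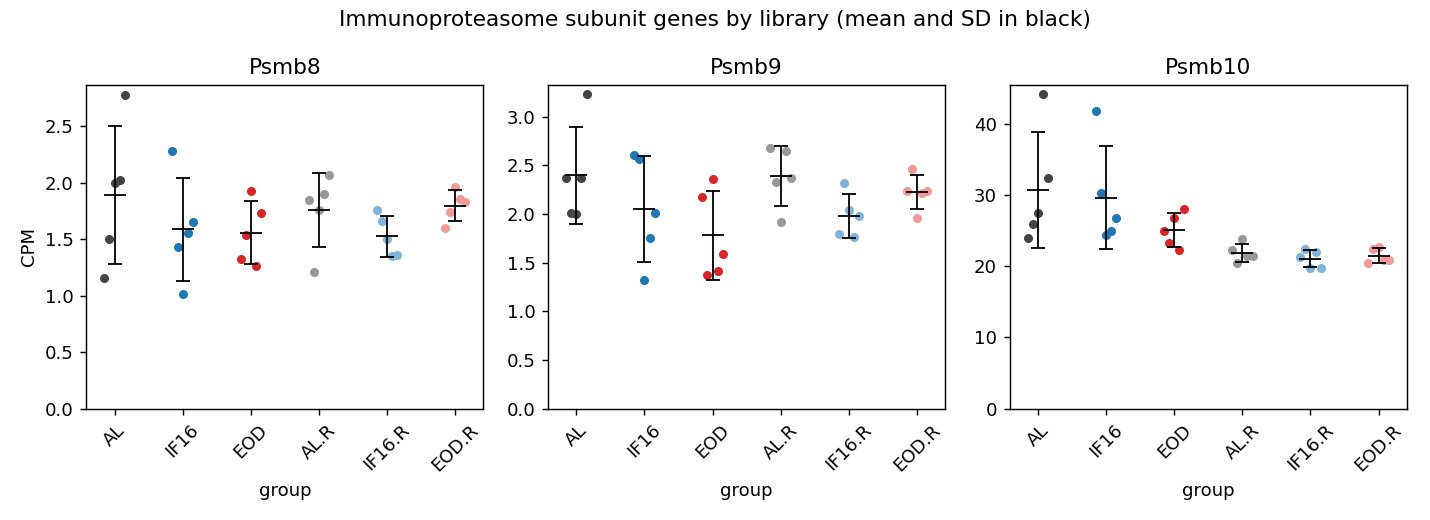
CPM of Psmb8, Psmb9 and Psmb10 in each library of the 6 groups, with the group mean and SD in black (n = 5). Within each table of 15 libraries the groups overlap in each panel, and the 2 highest Psmb10 values are AL replicate 4 (44.2) and IF16 replicate 1 (41.8).

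Psmb8 held 1.16, 1.5, 2, 2.03 and 2.78 CPM in AL, 2.28, 1.43, 1.02, 1.56 and 1.65 in IF16, and 1.33, 1.54, 1.93, 1.26 and 1.73 in EOD. Psmb9 held 2.37, 2.01, 2, 2.37 and 3.23 CPM in AL, 2.61, 2.56, 1.32, 1.75 and 2.01 in IF16, and 2.17, 1.37, 2.36, 1.41 and 1.59 in EOD. All 3 groups overlapped for both genes. The largest difference was EOD against AL at Psmb9, -0.43 ± 0.211 (SE; edgeR adjusted p = 0.354), with a 95% interval of -0.87 to 0.02. Psmb8 and Psmb10 in the same comparison had -0.28 (-0.77 to 0.21) and -0.29 (-0.64 to 0.06). Summed CPM of 9 microglial markers was 156 to 214 in AL, 140 to 182 in IF16 and 142 to 162 in EOD, highest in AL replicates 4 and 5 and IF16 replicate 1, and none of the 9 was at 0. The 6 genes listed as markers of T and NK cells, which carry the immunoproteasome, summed to 2.13 to 3.58 CPM over the 30 libraries. Of the 6, 2 passed the low-count filter, and 1 of these, Ptprc, is not confined to T and NK cells. The sum is thus not a level of these cells alone. The part of microglia and of T and NK cells in the levels was not tested.

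After refeeding, Psmb9 held 2.68, 2.33, 1.92, 2.65 and 2.37 CPM in refed AL, 1.79, 2.32, 2.04, 1.76 and 1.98 in refed IF16, and 2.24, 2.46, 1.96, 2.22 and 2.24 in refed EOD. Refed IF16 lay partly under refed AL, with a log2 fold change of -0.27 ± 0.123 (SE; edgeR adjusted p = 0.492). Psmb8 held 1.76, 1.66, 1.5, 1.35 and 1.36 CPM in refed IF16 and 1.6, 1.74, 1.96, 1.86 and 1.83 in refed EOD, a log2 fold change of 0.23 (-0.07 to 0.54, adjusted p = 0.641) for refed EOD against refed IF16. Psmb10 differed by 0.03 there (-0.09 to 0.14). Microglial markers summed to 142 to 159 CPM in refed AL, 151 to 163 in refed IF16 and 154 to 168 in refed EOD.

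Psma8, the alpha subunit of the testis, and Psmb11, the catalytic subunit of the thymus, were at the edge of detection. Psma8 had 2 to 17 counts per library and stood at 0.191 CPM per kilobase in AL. It gave the largest log2 fold changes of the 39 genes in 3 comparisons at the end of the regimens, -0.43 for IF16, -0.81 for EOD and -0.38 for EOD against IF16, with 95% intervals of -1.29 to 0.43, -1.72 to 0.1 and -1.34 to 0.57. It was 0.40 in refed IF16 (-0.29 to 1.1) and 0.11 in refed EOD (-0.61 to 0.84) against refed AL. Psmb11 had 0 to 4 counts per library and 0 in 10 of 30 libraries, and was not tested. Psmc3ip stood at 3.54 CPM per kilobase in AL. Its lowest log2 fold change was -0.23 in EOD (-0.5 to 0.04), and it was the lowest of the 39 genes in refed EOD against refed AL, at -0.21 (-0.51 to 0.1; edgeR adjusted p = 0.747).

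Genes that act around the subunits were read from lists chosen for their roles. Their AL and refed AL levels were scaled separately and come from mice of different ages, so differences between these 2 groups have no test here. Of the 5 genes of proteasome activators and inhibitor (Psme1 to Psme4 and Psmf1), 0 were called in any of the 6 comparisons. Psme4, the largest activator, stood at 50.5 ± 6.92 CPM in AL, and Psme1 and Psme2, the interferon-inducible activator pair, at 25.4 ± 6.93 and 24.6 ± 3.35 CPM (SD, n = 5). In refed EOD against refed IF16 all 5 were on the higher side, with a median of 0.0969 and a smallest edgeR adjusted p of 0.357 (Psme2). Of 5 core assembly factors tested (Pomp and Psmg1 to Psmg4), 0 were called in any comparison. Pomp, the maturation factor of the core, stood at 109 ± 21.3 CPM in AL and 89.9 ± 2.19 in refed AL.

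Of 9 tested proteins that bind the regulatory particle, 0 were called in any of the 6 comparisons. They include the receptor subunit Adrm1 (135 ± 32.5 CPM in AL), the small subunit Shfm1 (48.6 ± 8.04), the deubiquitinases Usp14 (50.9 ± 3.95) and Uchl5 (39.8 ± 3.2), and the shuttle factors Rad23b (165 ± 6.53) and Ubqln1 (193 ± 10.1). Of 8 genes that control proteasome genes, 0 were called. Nfe2l1 stood at 311 ± 9.56 CPM in AL and 313 ± 2.75 in refed AL, and Ddi2, the protease that activates it, at 54.6 ± 6.5 and 68.3 ± 4.56. The related factor Nfe2l2 had the smallest edgeR adjusted p of these genes in EOD (0.339) and in IF16 (0.503) against AL. The same held in refed EOD against refed AL (edgeR adjusted p = 0.392). It was on the higher side in each, with log2 fold changes of 0.17, 0.16 and 0.21.

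Of the 6 genes for ubiquitin and its E1 enzymes, 0 were called. Ubb, which encodes chained ubiquitin units, stood at 1110 ± 195 CPM in AL and 849 ± 41 in refed AL, with the smallest adjusted p of its list in EOD against AL at 0.329. Of 12 genes of antigen presentation and interferon response, 0 were called in any of the 6 comparisons. In refed IF16 against refed AL 11 of 12 were lower (51.2% of all genes), with 3 at an unadjusted p under 0.05 (9.58% of all genes) and a smallest edgeR adjusted p of 0.401 (Tap1). In refed EOD against refed IF16 12 of 12 were higher (52.1% of all genes), with 4 at an unadjusted p under 0.05 (9.75% of all genes) and a smallest adjusted p of 0.307 (B2m). Psmb8 and Psmb9 lay on the same sides in these comparisons, which share the refed IF16 libraries. The length gradient also differed in both comparisons (exact two-sided permutation p = 0.00794 and 0.0238). Within-group slopes after refeeding were -0.637 (Psmb8) and -0.185 (Psmb9) log2 units for each 0.1 of gradient. With the gradient as a covariate Psmb8 changed sign in refed IF16 against refed AL. The part of the gradient in the sides of the 12 genes was not tested.

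Other sets of short genes took the same side as the subunit genes in EOD against AL. Of 78 cytosolic ribosomal protein genes (median length 929 bases) 74 were lower (53.3% of all genes), with a median of -0.189 and 0 called (0.0664% of all genes). Of 36 nuclear genes of respiratory complex I (median length 977 bases) 35 were lower, with a median of -0.161 and 0 called. In refed EOD against refed IF16 the medians were 0.133 and 0.122, beside 0.0563 for the 39 subunit and related genes. There 2 of 78 ribosomal protein genes and 0 of 36 complex I genes were called (0.0182% of all genes), and 61 and 21 had an unadjusted p under 0.05 (9.75% of all genes), against 4 of 39. In refed EOD against refed AL, 78 of 78 ribosomal protein genes and 30 of 36 complex I genes were higher (50.3% of all genes). The other 6 complex I genes were lower. The medians were 0.0955 and 0.038, beside 0.0286 for the 39 genes, with 0 called (0.0426% of all genes). An unadjusted p under 0.05 was found for 28, 2 and 1 genes (8.5% of all genes). The mean length gradient was -0.00993 in refed EOD and -0.0129 in refed AL. The sets share libraries and short length, so no test of the difference between them was made.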

How the data were processed

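For each gene the authors deposited raw read counts, 15 libraries of the regimens in 1 table and 15 of refeeding in another. The submitters' processing notes name STAR 2.5, HTSeq 0.6.1 and build mm10. The strand setting and annotation release are not given in the sources used here. Gene lengths and positions are those of the deposited tables. Members and lists were chosen with earlier results of these data known.

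In R 4.3.3, TMM scaling and filterByExpr by group preceded the quasi-likelihood F test (edgeR 4.0.16), in 1 fit per table and a joint fit of 30 libraries for the interactions, with Benjamini-Hochberg adjustment over all genes tested (16577, 16444 and 16877). CPM are TMM-scaled within each table, and levels between genes are CPM per kilobase. Libraries held 26799825 counts or more, and the error of each value is the spread between libraries, which includes counting error. The length gradient was compared between groups by exact permutation. Named genes were, in each comparison, the smallest p and the highest and lowest log2 fold change among the tested genes, plus the catalytic, immunoproteasome and tissue-restricted subunits and Psmc3ip. Alternatives were DESeq2 1.42.0, its size factors in edgeR, no filter, the groups of a pair alone, a replicate block, length gradient and choroid plexus covariates, and leaving out libraries. The edgeR script was tested on simulated counts.

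Of pairs of libraries in a group, none agreed within sampling noise (chi-square per degree of freedom 4.24 to 136). Replicate numbers were not taken to pair libraries, since the correlation of same-numbered deviations ran from -0.534 to 0.427 and was not over 0.1 in every pair.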

Additional observations from a re-analysis of the deposited data

Results flagged for a closer look

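In groups of 5, a sample was set apart where its gap to the nearest other was large for the group's range (Dixon's test at 95%). Of 108 such tests 5 were positive, and chance gives about 1 in 20. Psmb7 in IF16 reached 197 CPM in replicate 1, with the nearest other library at 157 CPM. The share of counts on the 40 genes in IF16 was 0.386% in the same replicate, with the nearest at 0.338%. The median difference of the 39 tested genes was 0.226 log2 units in that replicate, with the nearest at 0.00114. Its length gradient was the second lowest of the table, at -0.114. Psmb11 in EOD was at 0 CPM in replicate 2, against 0.028 CPM in the nearest, a difference of 1 count or less. The median difference in refed EOD was -0.0684 in replicate 1, with the nearest at 0.0415.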

How the results depend on the processing

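In edgeR and DESeq2, 0 of the tested genes were called in each of the 155 alternative fits, as in the reported ones. Over all genes DESeq2 called 94 (IF16), 133 (EOD), 1 (EOD against IF16), 105 (refed IF16), 87 (refed EOD) and 123 (refed EOD against refed IF16), where edgeR called 8, 11, 0, 28, 7 and 3. The median over the genes was less stable. With the length gradient as a covariate it was 0.0466 for EOD against AL, 0.0309 for refed IF16 against refed AL and -0.00706 for the interaction with EOD, and without the 3 libraries of lowest gradient it was 0.0171 for EOD against AL. In the 151 other alternative fits it moved by less than 1 SD of the libraries. When 1 library was left out it ran from -0.0707 to 0.0312 for IF16, -0.17 to -0.0431 for EOD, -0.117 to -0.0303 for EOD against IF16, -0.042 to -0.0118 for refed IF16, 0.0114 to 0.0601 for refed EOD and 0.0421 to 0.0721 for refed EOD against refed IF16. The interactions ran from -0.0567 to 0.048 (IF16) and 0.0822 to 0.169 (EOD). When 1 library was left out, the count at an unadjusted p under 0.05 ran from 0 to 2 for IF16, 0 to 8 for EOD (8 without AL replicate 1), 0 to 1 for EOD against IF16, 0 to 6 for refed IF16 (6 without its replicate 2), 0 to 6 for refed EOD (6 without its replicate 1), 1 to 13 for refed EOD against refed IF16 (13 without refed EOD replicate 1), 0 to 1 for the IF16 interaction and 0 to 10 for the EOD interaction (10 without AL replicate 1). Over all genes the fits named in brackets had 4181 of 16650 (EOD), 1764 of 16535 (refed IF16) and 1880 of 16543 (refed EOD) at that threshold. They had 2021 of 16543 for refed EOD against refed IF16 and 3357 of 17005 for the EOD interaction. The cause of these shifts was not tested.

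The libraries that moved a median by over 1.5 times, or turned it, were these. For IF16 they were AL replicates 1 (-0.0564), 2 (-0.0409), 3 (-0.0345), 4 (0.0312) and 5 (0.00898) and IF16 replicates 1 (-0.0707), 3 (0.00489) and 4 (0.00515). For EOD they were AL replicate 4 (-0.0431) and EOD replicate 4 (-0.0775), and for EOD against IF16, IF16 replicate 1 (-0.0303) and EOD replicate 4 (-0.0436). For refed IF16 they were refed AL replicates 1 (-0.042) and 4 (-0.015) and refed IF16 replicate 1 (-0.0118). For refed EOD they were refed AL replicates 1 (0.0114), 2 (0.0116) and 5 (0.0516) and refed EOD replicates 1 (0.0601) and 5 (0.0144). AL replicate 4 moved the EOD interaction to 0.0822, and the IF16 interaction, near 0, changed sign or size with most libraries.

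Of the alternative values of named genes 100 changed sign and 1367 did not, with none called. With the gradient covariate the log2 fold changes were, in IF16, Psmb10 0.09, Psmb5 0.05, Psmb6 0.02, Psmc3ip 0.02, Psmd12 0 and Psmd13 0.1. In EOD they were Psmb10 0.02, Psmb5 0.07, Psmb6 0.06, Psmb7 0.03, Psmb8 0.06, Psmd12 0.01, Psmd13 0.03 and Psmd3 0.02. In EOD against IF16 they were Psmb5 0.02, Psmb6 0.04, Psmb8 0.15, Psmd1 -0.01, Psmd12 0.01, Psmd3 0.07 and Psmd9 0.04. In refed IF16 they were Psmb10 0.06, Psmb5 0.04, Psmb6 0.01, Psmb8 0.03, Psmd11 -0.04 and Psmd9 0.02, and in refed EOD against refed IF16, Psmb10 -0.07, Psmb5 -0.01 and Psmd3 -0.03. Without the 3 libraries they were, in IF16, Psmb10 0.04, Psmb5 0.08, Psmb6 0.06, Psmd12 0.01 and Psmd13 0.07, in EOD, Psmb5 0.07, Psmb6 0.05, Psmd12 0.01 and Psmd3 0.02, and in EOD against IF16, Psmb8 0.14, Psmd3 0.03 and Psmd9 0. With the choroid plexus covariate they were Psmb10 0.02, Psmc3ip 0 and Psmd13 0.04 in IF16, and Psmd11 0.02 in EOD against IF16.

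Psmd11 in refed EOD against refed IF16 was at 0 with DESeq2, with its size factors, without the filter and with the replicate block. With 1 library left out the values that could change sign ran, in IF16, from -0.21 to 0.11 (Psmb10), -0.11 to 0.04 (Psmb5), -0.19 to 0.01 (Psmb6), -0.04 to 0.09 (Psmb7), -0.11 to 0.01 (Psmc3ip) and -0.1 to 0.11 (Psmd13). In EOD against IF16 they ran from -0.15 to 0.14 (Psmb8), -0.07 to 0.01 (Psmd11), -0.06 to 0 (Psmd12), -0.09 to 0.03 (Psmd3) and -0.1 to 0 (Psmd9). In refed EOD they ran from -0.07 to 0.34 (Psma8), -0.05 to 0.01 (Psmb10), 0 to 0.06 (Psmb5), -0.08 to 0.1 (Psmb8), -0.01 to 0.04 (Psmd1) and 0 to 0.05 (Psmd11), in refed IF16 from -0.01 to 0.04 (Psmd11), and in refed EOD against refed IF16 from -0.02 to 0.03 (Psmd11) and -0.02 to 0.01 (Psmd9).

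The labels do not say what a replicate number stands for, and the numbers were not taken as pairing because only 3 of 15 same-numbered pairs at the end of the regimens and 8 of 15 after refeeding had a correlation over 0.1. After refeeding the median correlation was 0.104, against -0.0415 for other pairs, a hint from the data and not from the design. With the number as a replicate block, 0 of the 39 genes were called in any test, and the median was -0.122 for EOD against AL. In refed IF16, refed EOD and refed EOD against refed IF16, 4, 5 and 7 of them had an unadjusted p under 0.05, in place of 2, 1 and 4. Of all 16444 genes, 2326, 2066 and 2180 did, in place of 1576, 1397 and 1603. Over all genes the block raised the calls in these comparisons from 28, 7 and 3 to 95, 45 and 40. Best correlated with their own number were 0 of 15 and 2 of 15 libraries. Psma8, Psmb11, Psmb8 and Psmb9 are limited by their low counts.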
